A study of Homo sapiens with 34 samples.

Results

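The comparison described here is between ZEB2 knockdown and WT cells of the H1 line at day 0, before cardiac differentiation was started. It holds 4 of the 34 libraries of the series, 2 of ZEB2 shRNA cells and 2 of WT cells, chosen by the labels alone, and each gene is represented by the RefSeq row with the largest total count. H1 is an established human embryonic stem cell line. All cells had been infected with a lentiviral shRNA vector, selected with puromycin and kept in Essential 8 medium. WT denotes cells infected with an shRNA against GFP or with an empty vector, and the labels do not say which library had which. For ZEB2, a single hairpin was used, the one that lowered the mRNA most by RT-PCR among those tried. At the same time point the series has 2 libraries each of cells with an shRNA against NKX2-5 or ZNF503, made in the same way, and the same groups were also sequenced at days 2 and 6 of differentiation. Strand-specific total RNA was sequenced, and the values are raw read counts, given here as CPM, counts scaled to a common TMM-adjusted library total.

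ZEB2 encodes a zinc finger and homeodomain transcription factor that binds paired E-box motifs, mostly as a repressor with the NuRD and CtBP complexes. It is known for lowering epithelial genes such as CDH1 during epithelial to mesenchymal transition, and for limiting TGF-beta and BMP signals through SMAD proteins. ESCs are epithelial-like cells that are held in the pluripotent state by POU5F1, SOX2 and NANOG together with NODAL and FGF signals.

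The targeted gene was at or near the limit of detection in every library at day 0. ZEB2 (NM_014795, GRCh37 chr2:145121931-145278624, minus strand) had 6 and 14 counts in ZEB2 shRNA cells, and 0 and 9 counts in WT cells. In CPM these are 0.0640 and 0.200 against 0 and 0.229, so that the groups overlapped. The fitted log2 fold change was 0.13 with an SE of 1.03 (edgeR quasi-likelihood test, adjusted p = 0.961). A knockdown was not detectable at this depth. The totals of the 4 libraries ran from 38772320 to 90816127 counts, and 3 counts correspond to 0.0320 to 0.0774 CPM. ZEB1, the paralog of ZEB2, had 31 counts in each of the ZEB2 shRNA libraries and 12 and 15 in WT cells, with a log2 fold change of 0.15 (SE 0.465, adjusted p = 0.896). At later days, when WT cells had more ZEB2 RNA, the log2 fold change of ZEB2 was -0.63 at day 2 (SE 0.18, adjusted p = 0.185) and -0.77 at day 6 (SE 0.12, adjusted p = 0.00136). On both days the NKX2-5 and ZNF503 shRNA libraries were also below WT in ZEB2. At day 6 ZEB2 was at 53.4 and 56.9 CPM in ZEB2 shRNA cells and at 95.7 and 92.0 CPM in WT cells. It was at 20.2 and 20.0 CPM in NKX2-5 shRNA cells and at 10.7 and 12.5 CPM in ZNF503 shRNA cells. The day 0 differences below therefore separate cell populations that carry different vectors. The level of ZEB2 RNA itself was not seen to differ between them at day 0.

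The ESC identity of the cells was checked with pluripotency genes. POU5F1 was at 766 and 843 CPM in ZEB2 shRNA cells and at 781 and 796 CPM in WT cells. SOX2 was at 164 and 181 against 182 and 171 CPM, NANOG at 173 and 179 against 204 and 190 CPM, and LIN28A at 2021.5 and 1932.1 against 1889.6 and 1851.7 CPM. The log2 fold changes of these 4 genes ran from -0.16 to 0.08, and the adjusted p was at least 0.331 for each. No member of the pluripotency list was called among 39 tested, by edgeR or by DESeq2. In edgeR 10 had an unadjusted p under 0.05, compared with 3187 of all 16891 genes tested. At 10% FDR alone 5 members were higher and 1 lower, compared with 4.26% and 3.01% of all genes. The median log2 fold change of the list was 0.09. DNMT3B, the de novo DNA methyltransferase of ESCs, was at 1418.5 and 1306.2 against 1248.8 and 1198.1 CPM. All 4 libraries therefore held high levels of the defining ESC markers.

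Of 16891 genes tested, 372 (2.2%) were called at a 2-fold change and 10% FDR, the threshold used in the study for this day. ZEB2 shRNA cells had 241 genes higher (1.43%) and 131 lower (0.776%). At 10% FDR alone 1228 genes passed (7.27%), 720 of them higher (4.26%) and 508 lower (3.01%). Called genes were mostly of low level. Of the 372, 86 had a mean below 1 CPM in the higher group, and 74 had at least 10 CPM, of which 60 were higher and 14 lower. The median log2 fold change was 1.69 among those higher and -1.48 among those lower, and 84 and 36 of them changed at least 4-fold. All 372 had libraries that did not overlap between the groups, which held for 53.9% of all genes tested. With 2 libraries a group the number of calls depended on each library: it was 258 without ZEB2 shRNA replicate 1, 240 without replicate 2, 181 without WT replicate 1 and 166 without WT replicate 2. The lone library of a group was then assumed to vary like the other groups.

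**Figure D1:**
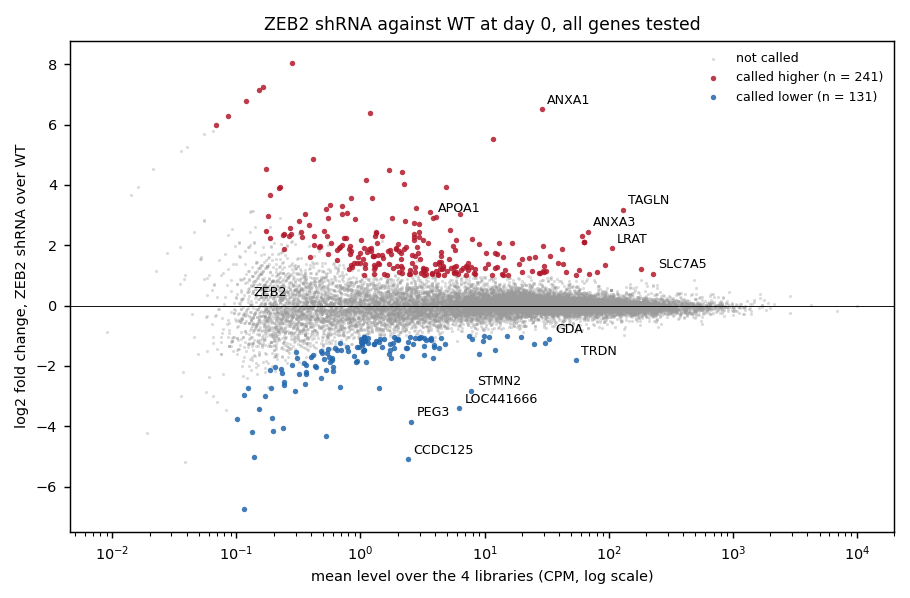
Each point is 1 of 16891 genes, with the mean level over the 4 libraries in CPM on a log scale and the log2 fold change of ZEB2 shRNA over WT cells. The 241 genes called higher (red) reach well above 10 CPM, whereas the 131 called lower (blue) lie mostly at lower levels, and ZEB2 lies at the left near 0.

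The largest rise with at least 1 CPM among the genes described here was in ANXA1. ANXA1, a phospholipid-binding protein that moderates inflammation, was at 50.8 and 63.5 CPM in ZEB2 shRNA cells and at 0.309 and 0.940 CPM in WT cells. Both ZEB2 shRNA libraries were far above both WT libraries, 90.8-fold on average (log2 fold change 6.51, SE 0.35, adjusted p = 1.65e-06). CXCL8, a neutrophil chemokine, had 56 and 287 counts in ZEB2 shRNA cells but 0 and 2 in WT cells, at least 30.6-fold higher when WT is set to 3 counts in each library. Its ZEB2 shRNA libraries differed widely from each other, and the call was lost without WT replicate 1 (adjusted p = 0.117). Other large rises were GLIPR1, a secreted protein of the CAP family (22.7-fold), the cytokine gene IL32 (21.4-fold), the fatty acid receptor CD36 (18.1-fold), TAC1, which encodes substance P (16.4-fold), the collagen gene COL12A1 (15.3-fold), the BMP antagonist GREM1 (11.9-fold) and endothelin 1, EDN1 (11.8-fold). In these 7 genes the ZEB2 shRNA libraries lay between 1.49 and 11.4 CPM and no WT library was above 0.645 CPM. A smaller rise was seen in a second annexin gene, ANXA3, at 95.3 and 135 CPM against 21.9 and 20.2 CPM (5.47-fold, adjusted p = 2.1e-05).

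The other shRNA lines differed from each other in these genes. ANXA1 was at 32.2 and 49.2 CPM in NKX2-5 shRNA cells but at 0.153 and 0.0528 CPM in ZNF503 shRNA cells. IL32 was at 3.09 and 7.34 CPM in the former and at 0.0437 and 0.330 CPM in the latter. For ANXA1 and IL32 the NKX2-5 shRNA libraries thus lay far above WT and near the ZEB2 shRNA libraries, while those of ZNF503 shRNA cells did not. Each of these comparisons uses the same WT libraries. In NKX2-5 shRNA against WT cells 4.03% of all genes were called, and in ZNF503 shRNA against WT cells 2.58%.

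Several genes of the actin cytoskeleton and of contraction were higher. In a list of 47 such genes, 11 were called higher and 0 lower, compared with 1.43% and 0.776% of all genes. At 10% FDR alone 20 were higher and 27 were not, compared with 4.26% higher of all genes. The median log2 fold change was 0.34. The list was drawn up after values had been seen, so that these counts are a description of the genes chosen. TAGLN, the actin-bundling transgelin of smooth muscle, was at 224 and 243 CPM in ZEB2 shRNA cells and at 27.9 and 23.6 CPM in WT cells (9.08-fold, log2 fold change 3.18, SE 0.28, adjusted p = 9.4e-05). TPM1, a tropomyosin, was at 255 and 254 CPM against 107 and 112 CPM (2.33-fold, adjusted p = 0.00564). In both genes the replicates of a group lay close together and far from the other group. CNN1, calponin, was at 17.4 and 20.1 CPM against 6.11 and 5.01 CPM, and MYL9, a myosin light chain, at 32.4 and 27.4 CPM against 10.1 and 10.7 CPM. The filamin gene FLNC was at 25.9 and 16.2 CPM against 5.42 and 4.50 CPM, and the call was lost without ZEB2 shRNA replicate 1 (adjusted p = 0.117) or WT replicate 2 (adjusted p = 0.146). The enteric smooth muscle actin ACTG2 was at 1.53 and 1.02 CPM against 0.206 and 0.102 CPM, a call that was kept only without ZEB2 shRNA replicate 2 (adjusted p from 0.151 to 0.283 without another library). The other called members were CSRP1, MYOCD, PALLD, PDLIM3 and PDLIM7. In NKX2-5 shRNA cells the same list had a median log2 fold change of 0.32 over WT, and in ZNF503 shRNA cells 0.02.

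Mesenchymal genes overlap with this group. Of 40 tested, 9 (22.5%) were called higher, compared with 1.43% of all genes, and 0 lower, with a median log2 fold change of 0.28. Next to TAGLN and CNN1 these included VIM, CD44, CCN1, CCN2, THBS1 and TNC. VIM, the intermediate filament of mesenchymal cells, was at 154 and 116 CPM in ZEB2 shRNA cells and at 57.3 and 48.6 CPM in WT cells (2.55-fold, adjusted p = 0.00623). THBS1, thrombospondin, was at 50.6 and 64.0 CPM against 22.1 and 20.6 CPM (2.68-fold, adjusted p = 0.000252). In NKX2-5 shRNA cells THBS1 was at 20.4 and 24.8 CPM, a range that overlapped WT. The whole list had a median log2 fold change over WT of 0.18 in NKX2-5 and 0.11 in ZNF503 shRNA cells. At 10% FDR 12 of the 40 were higher and 5 lower in NKX2-5 shRNA cells, compared with 2008 and 1959 of all 16891 genes. CD44, the hyaluronan receptor, was at 5.14 and 3.87 CPM in ZEB2 shRNA cells against 1.29 and 0.559 CPM in WT cells. TNC, tenascin, was at 4.13 and 4.2 CPM against 1.55 and 1.12 CPM, and its call was lost without any one of the 4 libraries (adjusted p from 0.116 to 0.262). Of 12 transcription factors that drive epithelial to mesenchymal transition, FOXQ1 alone was called (2.10 and 1.77 CPM against 0.619 and 0.407 CPM), a call lost without ZEB2 shRNA replicate 1 (adjusted p = 0.103) or WT replicate 2 (adjusted p = 0.172). SNAI1, the best known of them, had a log2 fold change of -0.46 (adjusted p = 0.298). Of 47 epithelial genes, ELF3 was the only one called, at 6.49 and 6.61 CPM against 2.6 and 2.21 CPM, and it was higher. Of 27 ZEB family members and corepressor partners edgeR called 0, and 3 had an unadjusted p under 0.05, compared with 3187 of all 16891 genes.

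CCN1 and CCN2, matricellular proteins that are widely used readouts of YAP and TEAD, were among the higher genes at moderate level. CCN1 was at 32.5 and 44.1 CPM against 12.7 and 12.2 CPM (3.08-fold, log2 fold change 1.62, SE 0.18, adjusted p = 0.000417), and CCN2 at 21.8 and 32.1 CPM against 6.16 and 6.66 CPM (4.2-fold, log2 fold change 2.07, SE 0.225, adjusted p = 0.00041). In a list of 21 YAP and TEAD target genes, also drawn up after values had been seen, 7 were called higher and 0 lower. The median log2 fold change was 0.65, and of all genes 1.43% were called higher. Besides CCN1 and CCN2, the called members of this list were AMOTL2, FJX1, IGFBP3, MYOF and NUAK2. Without WT replicate 1 only 4 were called. In a like list of 28 immediate early and NF-kappaB genes 8 were called higher and 0 lower (median 0.78, against 1.43% of all genes called higher, and as a description since the list followed the values): CXCL8, IL32, EGR1, FOSL1, IL1A, JUN, NFKBIZ and SOCS3. That count was 5 without either WT library. Over the same WT libraries NKX2-5 shRNA cells had a median of 0.70 for this list and ZNF503 shRNA cells 0.20. EGR1, an immediate early transcription factor, was at 0.833 and 1.43 CPM against 0.567 and 0.407 CPM, and its call was lost without either WT library or without ZEB2 shRNA replicate 2 (adjusted p from 0.204 to 0.472).

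The promoters of 3 called genes, picked after the motif search because they hold a motif of a factor known for their list, are shown as examples and do not stand for the lists. Sequences are RefSeq promoters of GRCh38.p14, the 250 bases before the annotated start, written 5′ to 3′ on the gene's strand. Capitals mark a CArG box, the site of serum response factor, in ACTG2 and EGR1, and the TEAD core GGAATG in CCN2. They stand at chr2:73892758-73893007 (plus strand), chr5:138465229-138465478 (plus strand) and chr6:131951373-131951622 (minus strand).
ACTG2: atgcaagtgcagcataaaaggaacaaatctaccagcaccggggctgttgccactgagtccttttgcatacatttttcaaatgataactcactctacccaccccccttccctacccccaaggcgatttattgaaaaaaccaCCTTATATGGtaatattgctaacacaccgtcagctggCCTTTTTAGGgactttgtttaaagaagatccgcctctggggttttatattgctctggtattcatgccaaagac
EGR1: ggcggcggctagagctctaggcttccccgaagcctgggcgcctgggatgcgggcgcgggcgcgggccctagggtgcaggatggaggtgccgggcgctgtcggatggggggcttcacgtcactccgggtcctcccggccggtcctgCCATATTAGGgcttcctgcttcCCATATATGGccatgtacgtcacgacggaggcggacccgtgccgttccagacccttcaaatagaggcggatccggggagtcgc
CCN2: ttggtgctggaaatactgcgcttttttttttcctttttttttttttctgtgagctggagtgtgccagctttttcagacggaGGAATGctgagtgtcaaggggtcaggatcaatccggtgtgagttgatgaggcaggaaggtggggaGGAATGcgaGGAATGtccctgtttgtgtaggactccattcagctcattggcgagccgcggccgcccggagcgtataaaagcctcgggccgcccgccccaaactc

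ACTG2 and EGR1 each held 2 CArG boxes and CCN2 held 3 copies of GGAATG. Motifs were searched on both strands in these 250 bases for the 12793 tested genes that had a promoter in the table, 179 of those called higher and 84 of those called lower. A CArG box was found in 3.91% of the promoters of genes called higher, 1.19% of those called lower and 1.07% of all tested. GGAATG was found in 14.5%, 7.14% and 9.35%, and TATAAA, the TATA element, in 20.1%, 5.95% and 6.12%. CACCTG, the E-box that ZEB2 binds, was found in 19%, 19% and 16.3%. Of the called actin genes with a promoter in the table, 1 of 8 held a CArG box, which was ACTG2, and TPM1, CNN1 and PALLD held none. In the whole actin list it was 7 of 39 (17.9%). GGAATG was in 2 of 6 called YAP and TEAD targets and in 5 of 15 of that list (33.3%). These shares describe letters in a short window, and no binding was measured.

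**Figure D2:**
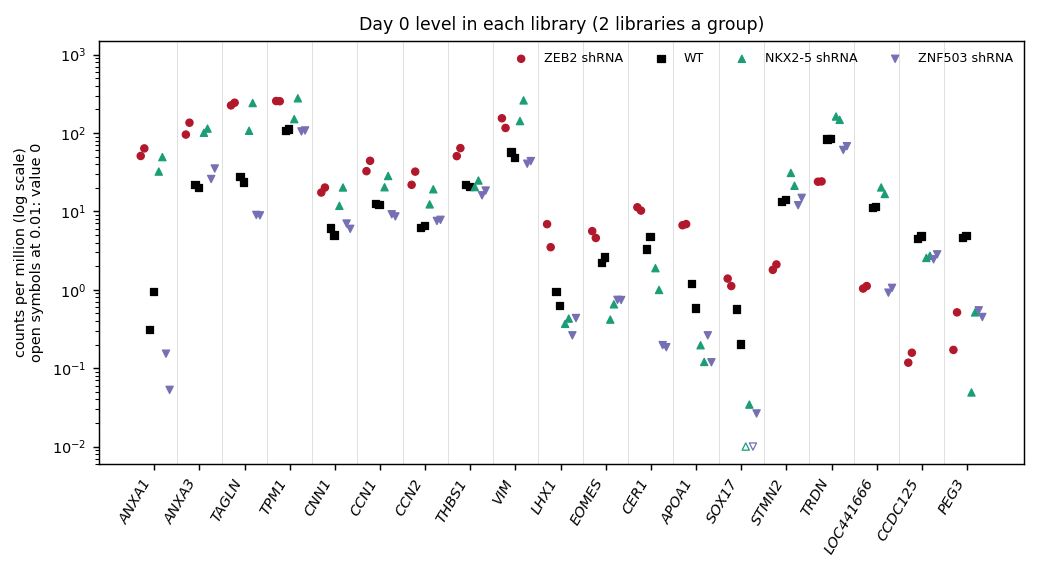
Level in CPM (log scale) of 19 genes in each of the 8 day 0 libraries, 2 a group; open symbols mark a value of 0. For ANXA1, TAGLN, CNN1 and VIM the ZEB2 shRNA libraries (red circles) lie with the NKX2-5 shRNA libraries (green triangles) above WT (black squares), whereas for LHX1, EOMES, CER1 and APOA1 they lie above all other groups.

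Endoderm genes showed another pattern across the cell lines. Of 15 tested, 8 (53.3%) were called higher, compared with 1.43% of all genes, and 0 lower. All 15 had a positive log2 fold change, and the median was 1.26. APOA1, an apolipoprotein of liver and yolk sac, was at 6.65 and 6.88 CPM in ZEB2 shRNA cells and at 1.21 and 0.584 CPM in WT cells (7.52-fold, log2 fold change 2.91, SE 0.34, adjusted p = 0.00063). CER1, a secreted NODAL antagonist of anterior endoderm, was at 11.3 and 10.2 CPM against 3.30 and 4.73 CPM (2.68-fold, adjusted p = 0.0109). CXCR4, a chemokine receptor used to sort definitive endoderm, was at 11.3 and 9.18 CPM against 4.69 and 3.86 CPM. The endoderm transcription factors GATA6 (2.42 and 2.02 against 0.438 and 0.610 CPM), HNF4A (1.91 and 1.42 against 0.361 and 0.381 CPM) and SOX17 (1.39 and 1.12 against 0.567 and 0.203 CPM) and the plasma protein genes AFP and APOA2 were the other called members. SOX17 lost its call without any one library (adjusted p from 0.14 to 0.551), HNF4A without ZEB2 shRNA replicate 1 or either WT library, GATA6 and APOA2 without ZEB2 shRNA replicate 1 or WT replicate 1, CER1 without WT replicate 1, and AFP and CXCR4 without WT replicate 2. All were at low level. The ZEB2 shRNA libraries lay above the WT libraries in each, which held for every gene called higher and is no further support. The summed level of the 15 genes was 57.5 and 51.6 CPM in ZEB2 shRNA cells and 25.8 and 24.2 CPM in WT cells. More cells of a type and more RNA per cell cannot be told apart in these bulk libraries. Beside the same WT libraries, NKX2-5 and ZNF503 shRNA cells had median log2 fold changes of -1.87 and -2.29 for this list, with exceptions in AFP, at a log2 fold change of 3.07 in NKX2-5 shRNA cells, and in FOXA1 and HHEX, at 2.11 and 0.49 in ZNF503 shRNA cells. Against the mean of the NKX2-5 and ZNF503 shRNA lines, 14 of the 15 genes, all but HHEX, were higher at 10% FDR. Of all genes 19.7% were. A gene could pass without being above each line. AFP did so, with a log2 fold change over WT of 2.44 in ZEB2 shRNA cells and 3.07 in NKX2-5 shRNA cells. Against WT, the number called fell to 4 without ZEB2 shRNA replicate 1, 3 without WT replicate 1 and 4 without WT replicate 2, and APOA1 was called in each.

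Genes of early mesendoderm lay beside them. LHX1, a LIM homeodomain factor of the early organizer, was at 6.86 and 3.49 CPM against 0.954 and 0.635 CPM (6.52-fold, log2 fold change 2.71, SE 0.38, adjusted p = 0.00214), and no library of the other shRNA lines was above 0.436 CPM. EOMES, a T-box factor of mesendoderm, was at 5.59 and 4.57 CPM against 2.24 and 2.62 CPM (adjusted p = 0.0317), and was at 0.416 to 0.742 CPM in the other lines. TBX5, a cardiac T-box factor, was at 3.03 and 3.99 CPM against 0.799 and 1.12 CPM, and in ZNF503 shRNA cells it was as high, at 3.58 and 4.45 CPM. These were the 3 genes called higher among 19 of the mesoderm and cardiac list, compared with 1.43% of all genes. NKX2-5 was lower but rests on 4 and 2 counts against 8 and 16. The call on EOMES was lost without ZEB2 shRNA replicate 1 or either WT library (adjusted p from 0.161 to 0.242). Of 21 neural genes, MAP2, PAX7 and LHX5 were called higher (14.3%, compared with 1.43% of all genes). PAX7, a factor of neural crest and muscle progenitors, was at 1.36 and 1.19 CPM against 0.103 and 0.432 CPM, far below the 9.59 and 7.71 CPM of ZNF503 shRNA cells. MAP2, a neuronal microtubule protein, was at 14.5 and 7.68 CPM against 5.03 and 4.04 CPM. The call on PAX7 was lost without WT replicate 1, that on MAP2 without ZEB2 shRNA replicate 1 or either WT library (adjusted p from 0.11 to 0.233), and those on LHX5 and NKX2-5 without any one library.

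Few members of the signalling lists were called, where 1.43% of all genes were called higher. In the NODAL and TGF-beta list 3 of 38 tested (7.89%) were, among them INHBA and CER1, with a list median of 0.07. INHBA lost its call without any one library (adjusted p from 0.122 to 0.397), CER1 without WT replicate 1, and the count was then 1. In the BMP list GREM1 and BMP2 were called higher of 26 (7.69%). BMP2, a BMP ligand, was at 5.55 and 5.90 CPM against 1.73 and 2.64 CPM (adjusted p = 0.0114), a call lost without WT replicate 1 (adjusted p = 0.142). In the WNT list 2 of 43 (4.65%) were called higher. WNT10B had 77 and 56 counts against 0 and 2, at least 10.6-fold higher, and WNT3A had 11 and 11 counts against 0 and 0, at least 1.79-fold higher. The call on WNT3A was lost without any one library (adjusted p from 0.17 to 0.414). Both ligands were also called higher in NKX2-5 and in ZNF503 shRNA cells, with WNT3A at 0.196 and 0.412 CPM and 0.218 and 0.106 CPM there, so that WT was the group that stood apart. No member of the Notch list (19 tested) or of the cell cycle list (41 tested) was called by edgeR. An unadjusted p under 0.05 was found for 3 and 19 of them, compared with 3187 of all 16891 genes. DESeq2 called 1 Notch gene lower and no cell cycle gene. The retinoic acid list had CYP26A1 called higher of 15, the p53 list GDF15 and FAS of 27, the hypoxia list ADM of 23, the interferon list IFI6 of 41 and the trophoblast list IGFBP3 of 11. Of these, ADM was called without any one library, at 63.4 and 61.5 CPM against 25.5 and 22.1 CPM, and each of the others lost its call without at least WT replicate 1 or WT replicate 2.

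**Figure D3:**
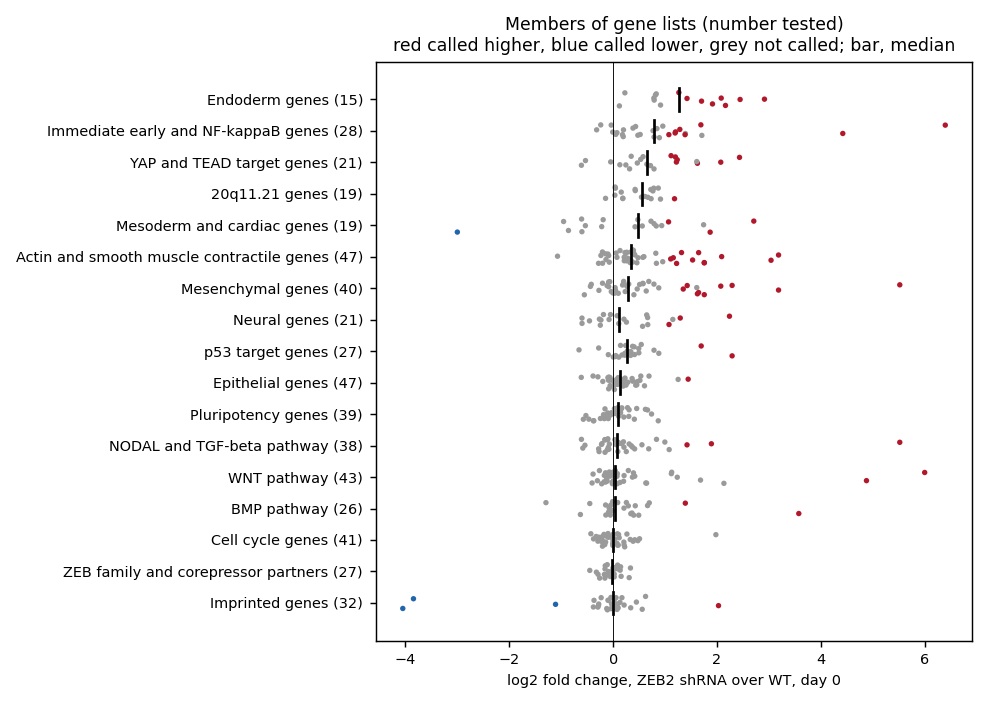
Log2 fold change of each tested member of 17 gene lists, with red and blue for genes called higher and lower, grey for the others and a bar at the median. The medians of the endoderm, immediate early, YAP and 20q11.21 lists lie at 1.26, 0.78, 0.65 and 0.55, whereas the cell cycle and ZEB partner lists lie near 0.

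The higher genes with the highest level were SLC7A5, TPM1, TAGLN, LRAT and VIM. SLC7A5, a leucine transporter, was at 379 and 232 CPM against 150 and 143 CPM (2.09-fold, adjusted p = 0.0549), and LRAT, which esterifies retinol, at 205 and 127 CPM against 43.6 and 45.5 CPM (3.73-fold, adjusted p = 0.0167). In both genes the ZEB2 shRNA replicates differed from each other, and each call was lost without ZEB2 shRNA replicate 1 or either WT library (adjusted p from 0.127 to 0.319).

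Genes that were lower in ZEB2 shRNA cells were fewer, and the largest falls were in genes of varied function. CCDC125, a coiled-coil protein, was at 0.117 and 0.157 CPM in ZEB2 shRNA cells and at 4.46 and 4.85 CPM in WT cells (33.9-fold lower, log2 fold change -5.08, SE 0.30, adjusted p = 2.64e-06). It was at 2.45 to 2.82 CPM in the other shRNA lines, so that ZEB2 shRNA cells stood apart from all 6 remaining libraries. STMN2, a microtubule regulator of neurons, was at 1.79 and 2.10 CPM against 13.3 and 14.2 CPM (7.07-fold lower, adjusted p = 2.1e-05), with at least 12.0 CPM in the other lines. TRDN, triadin of the sarcoplasmic reticulum, was at 23.9 and 24.1 CPM against 83.9 and 85.2 CPM (3.53-fold lower, log2 fold change -1.82, SE 0.10, adjusted p = 1.65e-06), and at 60.7 to 162 CPM in the other lines. CTSF, a lysosomal protease, was at 0.342 and 0.443 CPM against 1.62 and 1.25 CPM, and OVGP1, a secreted glycoprotein, at 0.704 and 0.214 CPM against 2.09 and 1.42 CPM (lost without WT replicate 1, adjusted p = 0.195). The other lower genes with high level were the purine enzyme gene GDA (22.4 and 20.0 against 47.3 and 43.8 CPM), ZC3H6 (18.1 and 11.5 against 33.4 and 37.6 CPM), the extracellular sulfatase gene SULF1 (13.9 and 11.8 against 25.1 and 27.9 CPM) and the noncoding RNA D21S2088E (18.3 and 18.1 against 42.9 and 42.6 CPM). ZC3H6 and SULF1 fell just short of 2-fold without ZEB2 shRNA replicate 2, with log2 fold changes of -0.97 and -0.93, and SULF1 also without WT replicate 2 (-0.96).

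In a second set of lower genes the other shRNA lines followed no single pattern. PEG3, an imprinted zinc finger gene that is expressed from the paternal allele, was at 0.171 and 0.515 CPM against 4.67 and 4.88 CPM (14.4-fold lower, adjusted p = 0.00313). It was as low in NKX2-5 shRNA cells (0.0490 and 0.515 CPM) and ZNF503 shRNA cells (0.546 and 0.449 CPM), so that all 3 shRNA lines differed from WT. ZIM2, which shares its start region with PEG3, had 0 and 4 counts against 13 and 22, and reads of the overlapping genes may not be separable. LOC441666, a noncoding row whose reads could be shared with near-identical copies, was at 1.04 and 1.12 CPM against 11.1 and 11.5 CPM (10.6-fold lower, adjusted p = 1.65e-06). It was as low in ZNF503 shRNA cells, at 0.917 and 1.06 CPM, but at 20.2 and 16.7 CPM in NKX2-5 shRNA cells. ZNF560, a zinc finger gene, was at 0.213 and 0.143 CPM in ZEB2 shRNA cells, 1.03 and 1.35 CPM in WT cells, 16.8 and 14.9 CPM in NKX2-5 shRNA cells and at most 0.0437 CPM in ZNF503 shRNA cells. TRIM61, a tripartite motif gene, was at 0.416 and 0.315 CPM against 2.50 and 2.39 CPM. It was also called lower than WT in NKX2-5 and ZNF503 shRNA cells, with log2 fold changes of -1.46 and -1.30. LINC00663 was at 0.523 and 0.272 CPM in ZEB2 shRNA cells against 1.91 and 1.02 CPM in WT cells. Its call was lost without ZEB2 shRNA replicate 2 or WT replicate 1. Of 32 imprinted genes tested, PEG3, ZIM2 and H19 were called lower and DIO3 higher (12.5% called, compared with 2.2% of all genes). H19, a maternally expressed noncoding RNA, was at 1.15 and 0.801 CPM against 2.04 and 2.21 CPM (adjusted p = 0.054), and its call was lost without ZEB2 shRNA replicate 2 or either WT library. That on ZIM2 was lost without any one library. DIO3, the deiodinase that inactivates thyroid hormone, was at 3.06 and 3.42 CPM against 0.671 and 0.915 CPM, and at no more than 0.175 CPM in the other lines.

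A run of neighbouring genes at 20q11.21 was higher in ZEB2 shRNA cells by a similar, small amount. Among chromosome 20 genes with at least 5 CPM, the 10 consecutive genes from HM13 to ASXL1 (GRCh37 chr20:30102231-31027122, 925 kb) all had a positive log2 fold change, from 0.42 to 1.18 with a median of 0.75, a 1.68-fold difference, and all 10 passed 10% FDR. BCL2L1, the anti-apoptotic member of the BCL2 family, was at 79.8 and 81.1 CPM in ZEB2 shRNA cells and at 36 and 35 CPM in WT cells (2.27-fold, log2 fold change 1.18, SE 0.12, adjusted p = 0.000367). ASXL1, a Polycomb-associated chromatin regulator, was at 49.9 and 49.7 CPM against 27.4 and 27.2 CPM (1.82-fold, adjusted p = 0.00116). KIF3B, a kinesin motor, was at 105 and 92.6 CPM against 56.9 and 58.2 CPM, HM13, a signal peptide peptidase, at 76.8 and 81.6 CPM against 46.3 and 46.9 CPM, and POFUT1, the O-fucosyltransferase of Notch, at 61.3 and 61.1 CPM against 35.5 and 38.4 CPM. In all 10 genes both ZEB2 shRNA libraries were above both WT libraries. The others were PDRG1, PLAGL2, TM9SF4, ID1 and TPX2, with log2 fold changes from 0.42 to 0.91.

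The ends of the run were set after the day 0 values had been seen, where they stopped being high, so that the day 0 values of its neighbours are a description. The neighbour before it, FRG1BP, had a log2 fold change of -0.25 and the neighbour after it, NOL4L, -0.15, and the 5 genes on each side together had a median of -0.01. DNMT3B, the third gene after the run, had 0.16. Windows of 15 consecutive genes with at least 5 CPM were taken on all chromosomes, 11179 windows. The highest median log2 fold change was 0.55 and lay here, against 0.35 for the highest window of any other chromosome. The latter lay in the clustered protocadherins of chromosome 5, whose rows may count the same reads. At day 2 all 10 genes were positive with a median of 0.43, and 5 passed 10% FDR, compared with 0.43% of all genes tested. None of the 10 neighbours passed then in edgeR, and their median was 0.04. At day 6 all 10 were positive with a median of 0.49, and 8 passed, compared with 7.98% of all genes. Of the neighbours at day 6, 1 was higher and 1 lower at 10% FDR, and the higher one was NOL4L next to the run, with 0.46 (adjusted p = 0.0883). Against WT at day 0 the 10 genes had a median of -0.18 in NKX2-5 shRNA cells and -0.05 in ZNF503 shRNA cells. Against the mean of these lines, all 10 were higher in ZEB2 shRNA cells at 10% FDR, compared with 19.7% of all genes, with a median of 0.94. Of the 10 neighbours 2 were higher and 2 lower there, DNMT3B with a log2 fold change of 0.66 (adjusted p = 0.000746). Leaving out any one library kept the median between 0.71 and 0.78, but with 1 library in a group the adjusted p of ID1 was from 0.112 to 0.474, and that of PDRG1, TM9SF4 and TPX2 reached 0.12, 0.216 and 0.24. The region is known as a recurrent site of copy number gain in cultured human ESCs, DNA was not measured here, and whether copy number differed between these cells was not tested.

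**Figure D4:**
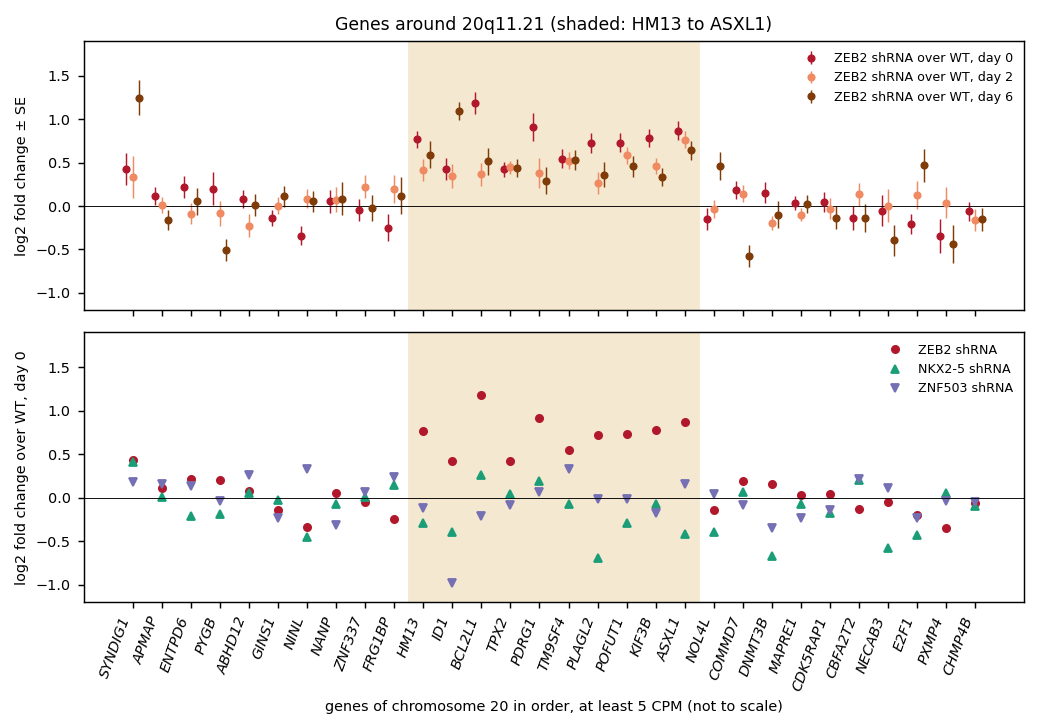
Log2 fold change of genes of chromosome 20 in their order along the chromosome (not to scale), above for ZEB2 shRNA over WT cells at days 0, 2 and 6 with SE, and below at day 0 for each shRNA line over WT. The 10 shaded genes, HM13 to ASXL1, are above 0 on all 3 days in ZEB2 shRNA cells, and the medians of the other lines there are -0.18 and -0.05.

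A comparison of ZEB2 shRNA cells with the mean of the NKX2-5 and ZNF503 shRNA lines, which also carry a hairpin, used the same ZEB2 shRNA libraries. It called 1043 genes (6.17%), 469 higher (2.78%) and 574 lower (3.4%). Values over WT and over the mean of the other lines are given side by side. A difference from that mean need not hold for each line. For ANXA1 the NKX2-5 shRNA libraries lay near the ZEB2 shRNA libraries, and those of ZNF503 shRNA cells lay far below. The log2 fold changes were 6.51 and 4.87 for ANXA1, 3.18 and 2.57 for TAGLN, 2.91 and 5.34 for APOA1 and 2.71 and 3.76 for LHX1. Among lower genes they were -5.08 and -4.26 for CCDC125, -2.82 and -3.27 for STMN2 and -1.82 and -2.05 for TRDN. These 7 genes were called in both, whereas PEG3 was not called against the other lines (log2 fold change against the other lines -0.23, adjusted p = 0.778), nor was GDF15 (0.50, adjusted p = 0.326).

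Whether the day 0 differences were seen again once differentiation had started was asked with the libraries of days 2 and 6. Of genes higher at day 0 and tested at day 2, 4 of 195 (2.05%) were higher at 10% FDR, compared with 0.43% of all genes, and 6 were lower. Of genes lower at day 0, 20 of 123 (16.3%) were lower again at day 2, compared with 0.406% of all genes. At day 6, 51 of 212 (24.1%) were higher again against 7.98% of all genes, while 29 were lower. Of the genes lower at day 0, 21 of 105 (20%) were lower again against 7.26% of all genes, while 10 were higher. Genes that were repeated on both days numbered 12, and all 12 were lower. CCDC125 had log2 fold changes of -5.08, -4.43 and -3.76 at days 0, 2 and 6, LOC441666 of -3.40, -3.20 and -3.27, PEG3 of -3.84, -3.47 and -2.38, and TRIM61 of -2.72, -4.39 and -3.30. By contrast TAGLN had 3.18, -1.31 and -0.01, CCN1 1.62, -0.93 and -0.30, and TPM1 1.22, -0.16 and -0.84. The interaction of group and day called 265 of 17345 genes (1.53%). The actin and smooth muscle list went from a median of 0.34 at day 0 to -0.11 at day 2 and -0.25 at day 6. The endoderm list had medians of 1.26, -0.02 and 0.43.

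**Figure D5:**
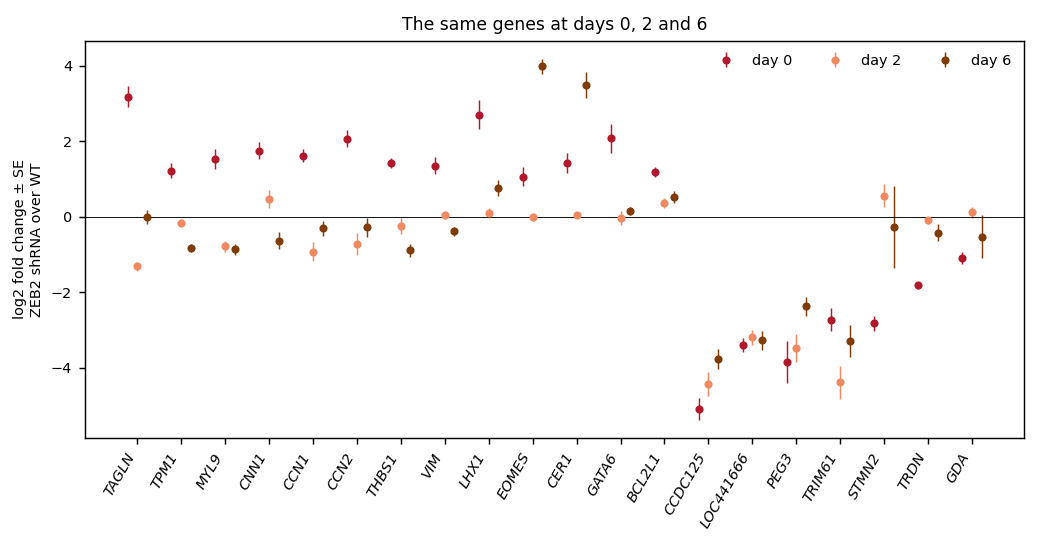
Log2 fold change with SE of ZEB2 shRNA over WT cells at days 0, 2 and 6 for 20 genes called at day 0; a missing point was not tested on that day. CCDC125, LOC441666, PEG3 and TRIM61 stay below -2 on each day, whereas TAGLN, CCN1, LHX1, STMN2 and TRDN lie near 0 or on the other side at day 2.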

How the data were processed

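The deposited values are raw read counts per RefSeq accession. According to the study's methods and the submitters' processing notes, the authors mapped stranded total RNA reads to hg19 (GRCh37) with TopHat2 2.0.14 and counted them per gene with RSeQC. Accessions were matched to symbols with a RefSeq gene table of GRCh38.p14 (40285 of 41627 rows), and 23189 symbols were kept, each by its most abundant row, so that antisense or near-identical genes can share reads. Samples were grouped by GEO's labels. Positions are from GENCODE on GRCh37, and promoters from RefSeq on GRCh38.p14.

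The 8 day 0 libraries of 4 groups were fitted together with edgeR 4.0.16 in R 4.3.3 (filterByExpr, TMM, quasi-likelihood test, Benjamini-Hochberg adjustment over all genes), and days 2 and 6 likewise. The interaction was fitted on 16 libraries. Genes were called at 2-fold and 10% FDR, and SEs were derived from the F statistic. CPM uses library totals multiplied by TMM factors. Recovery was tested on simulated data. The replicates are described as biological by the study. The p-values rest on the spread between the 2 libraries of a group, pooled over all groups of a fit. At day 0 this spread was unequal. A chi-square per gene between the libraries of a group was 36.4 for ZEB2 shRNA and 4.72 for WT cells. It was 37.9 for NKX2-5 and 12.3 for ZNF503 shRNA cells. Depth also differed between the libraries. The pooled spread may thus be too small for ZEB2 shRNA cells. The p-values do not measure how separately infected cell populations would differ. Counting floors (3 counts) cover counting error only.

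Named genes are ZEB2 and ZEB1, the 10 largest rises and falls among called genes that do not overlap and reach 1 CPM, the 5 called genes with the highest level in each direction, called members of lists and ESC markers. The comparison, lists and rules were chosen with earlier results of these data known, and 3 lists and the 20q11.21 run after seeing the values. Alternatives used DESeq2 1.42.0 and are given in the closing section. The 10 day 10 columns were not used here, 4 of them because their rows are not aligned with the gene names. One gene that the rule names is not reported here.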

Additional observations from a re-analysis of the deposited data

Results flagged for a closer look

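The difference between ZEB2 shRNA and WT cells changed from day 0 to day 2 for 39 of 90 named genes, ZEB2 not counted. The test was the interaction term of group and day (edgeR, 2-fold and 10% FDR), which called 1.53% of all 17345 genes tested. Values are the log2 fold change at day 2 minus that at day 0. These genes were named for their day 0 differences, which enter the interaction term, so that a move towards 0 is no independent evidence of a change. Among actin, matrix and mesenchymal genes, which were higher at day 0, the differences were TAGLN -4.49, COL12A1 -3.73, CCN2 -2.78, CCN1 -2.54, FLNC -2.49, TNC -2.33, MYL9 -2.30, THBS1 -1.66, TPM1 -1.37, VIM -1.30 and CNN1 -1.28. TAGLN had the smallest adjusted p of all (2.59e-06). Among lineage and signalling genes, also higher at day 0, they were WNT3A -5.56, LHX1 -2.62, GATA6 -2.11, ELF3 -1.74, SOX17 -1.73, BMP2 -1.47, CER1 -1.38, LHX5 -1.33, CYP26A1 -1.19 and EOMES -1.07. Of these, GATA6, SOX17, CER1, LHX1 and EOMES had log2 fold changes between -0.03 and 0.09 at day 2. Among the other genes that were higher at day 0 they were ANXA1 -8.17, IL32 -5.74, EDN1 -4.42, GLIPR1 -4.36, EGR1 -3.05, GDF15 -2.96, IFI6 -2.95, ANXA3 -2.51, FAS -1.90, SLC7A5 -1.72 and ADM -1.63. ANXA1 was not tested at day 2 alone. The value of WNT3A rests on a fitted fold over a WT group with 0 counts and is no measure of size.

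Genes that were lower at day 0 had differences of GDA 1.23, ZC3H6 1.32, SULF1 1.61, TRDN 1.73, LINC00663 2.04 and STMN2 3.39, and their log2 fold changes at day 2 were between -0.10 and 0.56. ZNF560 had a difference of -6.55, with log2 fold changes of -2.69 at day 0 and -8.95 at day 2. With 2 libraries a group, no group was large enough to look for a single library far from the others.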

How the results depend on the processing

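Against WT at day 0, 372 genes were called, and DESeq2 called 354 (336 shared), no TMM factors 360, no filter 434, a filter at 1 CPM 315, the 2 groups alone 398 and summed RefSeq rows 348. The edgeR exact test called 546, of which 222 were lower. At 5% FDR with no fold threshold 663 passed (417 higher, 246 lower), and glmTreat at 1.5-fold called 135 (104 higher, 31 lower). Against the other shRNA lines a filter at 1 CPM gave 627 calls (281 higher, 346 lower) and 5% FDR alone 4936 (2596 higher, 2340 lower). Genes repeated higher at day 2 numbered 14 with no filter and 2 with summed rows, and the interaction called 403 with no filter. The log2 fold change of ZEB2 was -0.078 with summed rows.

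Leaving out 1 library gave 166 to 258 calls against WT (120 to 178 higher, 46 to 115 lower), 376 to 637 lower against the other lines, 1 to 5 genes repeated higher and 12 to 18 repeated lower at day 2, and 124 to 258 interaction calls. It moved ZEB2 from -0.84 to 5.96, ZEB1 from -0.061 to 0.36, SOX2 from -0.11 to 0.036 and POU5F1 from -0.042 to 0.10, none of which was called. Of 75 named genes that were called, 37 kept the call without any 1 library, and 67 kept it under the other normalizations, tests, filters and the block. The 67 rests on the settings in which a gene was tested, so that a gene removed by a filter was not scored as lost there. The replicate block called 311 genes (307 shared). The replicate numbers did not pair ZEB2 shRNA with WT libraries, since the deviations of same-numbered libraries had r = -0.00831. For the other pairs of day 0 groups r ran from -0.253 (NKX2-5 with ZEB2 shRNA) to 0.0367 (ZEB2 with ZNF503 shRNA). Low counts limit what can be said of ZEB2 itself. The cause of these changes was not tested.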

Other observations

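Clustered protocadherins, cell adhesion genes that are switched on stochastically, had no call by edgeR among 57 tested, with a median log2 fold change of 0.12. Of the 57, 22 had an unadjusted p under 0.05, compared with 3187 of all 16891 genes. Many of these rows had near-equal values and may count the same reads. In ZEB2 shRNA cells PCDHA2 was at 30.3 and 29.5 CPM and PCDHA3 at 30.0 and 29.3 CPM. The 22 are therefore not separate genes, and their share cannot be set against that of all genes. Of 455 tested genes named ZNF, 4 were called lower (0.879%) and 0 higher, compared with 0.776% and 1.43% of all genes. At 10% FDR alone 20 were lower and 6 higher, compared with 3.01% and 4.26% of all genes. Of 176 long noncoding RNAs named LINC, 2 were called higher and 5 lower, compared with 1.43% and 0.776% of all genes. TEX14, a germ cell gene, was at 6.32 and 5.08 CPM in ZEB2 shRNA cells and 1.11 and 1.6 CPM in WT cells (adjusted p = 0.00313).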
